A study of Homo sapiens with 6 samples.

Results

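The 10 genes described here encode the machinery of the G1 phase of the cell cycle, in which a cell commits to copying its DNA. They are the D cyclins CCND1, CCND2 and CCND3 with their kinases CDK4 and CDK6, the E cyclins CCNE1 and CCNE2 with their kinase CDK2, the inhibitor CDKN1B (p27) and the substrate RB1. They were chosen by function with their knockdown differences in these arrays already known, so those differences, their intervals and the calls counted among them are a description of these arrays and no test of these genes. Every probe set that the array platform assigns to 1 gene of this list was taken, which gave 26 of the 54613 probe sets. The genes were 10 of 19775 with a probe set of their own.

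D cyclins are made in response to growth signals and activate CDK4 or CDK6, which begin the phosphorylation of the retinoblastoma protein. E cyclins with CDK2 complete it, and E2F factors released from the retinoblastoma protein then switch on the genes of DNA replication, CCNE1 and CCNE2 among them. The p27 protein restrains CDK2 and is controlled largely through its stability, so that transcript levels show only a part of its regulation. HEK293 cells were transformed with adenoviral DNA and make the viral E1A protein, which binds the retinoblastoma protein and its relatives. This limits the line as a model of a normal G1 phase.

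Flp-In T-REx 293 cells are derivatives of HEK293, and all cells of the study carried a stable inducible GFP transgene that was not induced. Clones 1, 2 and 3 were each treated either with siRNAs against TET1, TET2 and TET3, the enzymes that oxidise 5-methylcytosine in DNA, or with a pool of non-targeting siRNAs, and total RNA was taken after 96 h. Each clone gave 1 knockdown and 1 control array, 6 one-colour arrays in all, and the labels do not say how many cultures stand behind each. With a single array per clone and treatment, p-values measure only the spread between these arrays. Values are signals on a linear scale, scaled by the authors to the same trimmed mean, and the number of arrays limits their precision. Log2 signals of different arrays correlated at 0.972 to 0.986 over the tested probe sets.

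The targeted transcripts were lower in all 3 clones, with 17.9% of control left for TET1, 46.8% for TET2 and 42.9% for TET3. The ratios of 3' to 5' control probe sets, a sign of RNA integrity, were 1.05 to 1.07 in the knockdown and 1.04 to 1.08 in the control for GAPDH, and 1.89 to 2.15 and 2.01 to 2.07 for ACTB. Of 8 HEK293 markers 7 lay above the brightness limit described below, with NEFL, a neurofilament gene active in this line, at 17071 to 24539. LHX1, at 54.9 to 189, lay below it. The summed signal of these markers was 53165 to 64844 in the knockdown and 62609 to 66836 in the control. VIM (30595 to 38565) and NEFL made up most of it, and both were lowest in the knockdown array of clone 1. The part of this sum in the differences below was not tested. Of 11 measured markers of other cell types 3 lay above the limit, PECAM1 (147 to 210), LUM (45.5 to 216) and DES (79.1 to 186). The sums of the 11 were 933 to 998 in the knockdown and 982 to 1065 in the control. The leukocyte markers PTPRC, the dimmest of the 11, and CD3E lay below it, at 9.6 to 51.6 and 49.1 to 168.

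Probe sets were tested if their mean log2 signal over all 6 arrays was in the upper 50%, a geometric mean signal of at least 117. Of the 26 probe sets of the G1 genes 21 passed, at least 1 for each of the 10 genes. In limma with the clone as a block, 282 of 27306 tested probe sets (1.03%) had an adjusted p under 0.05, 177 (0.648%) lower and 105 (0.385%) higher in the knockdown. Among the 21 probe sets of the G1 genes that fit called 3 lower, 1 of CCND2 and 2 of CDK6, and 1 of CCNE2 higher, a count from which nothing is read because the choice of genes used this contrast. Without the clone in the fit 4 of all tested probe sets were called (0.0146%), and all 4 calls in G1 genes were lost. They were also lost with the block kept but with plain empirical Bayes in limma, which called 0 of 27306 probe sets. With no filter on dim probe sets 70 were called in all, and the calls of CDK6 at 224847_at and of CCNE2 were lost. With the block and the filter, the calls of CDK6 at 224847_at and of CCNE2 were lost without clone 1 or without clone 3, where all calls numbered 108 and 63, while they numbered 684 without clone 2. In RNA of whole cultures, fewer cells in a phase of the cycle and less RNA per cell cannot be told apart.

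The regulatory stretch of CDK6 is shown because CDK6, with CCND2, had the largest negative differences, and that of CCND3 because this D cyclin lay higher. TET enzymes act at CG dinucleotides, which are set in capitals. Promoter windows of 300 bases, from 250 before to 50 after a gene start, come from RefSeq on GRCh38.p14, and 6 of the 10 genes matched, with 9 windows. CCND1, CCND2, CCNE2 and CDK2 had no entry there. The CDK6 windows lie on the minus strand at chr7:92836524-92836823, with 37 CG, and at chr7:92833910-92834209, with 29 CG. The CCND3 window shown, chr6:41941759-41942058 on the minus strand, has 37 CG, and the other CCND3 windows have 29 and 3.
CDK6, window with 37 CG: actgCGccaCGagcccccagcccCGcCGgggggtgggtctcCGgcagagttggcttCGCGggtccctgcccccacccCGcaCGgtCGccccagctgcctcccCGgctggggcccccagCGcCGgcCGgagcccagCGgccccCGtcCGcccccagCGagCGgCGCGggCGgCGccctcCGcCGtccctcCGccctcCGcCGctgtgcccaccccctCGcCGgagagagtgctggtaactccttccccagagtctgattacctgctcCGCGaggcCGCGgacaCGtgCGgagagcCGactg
CDK6, window with 29 CG: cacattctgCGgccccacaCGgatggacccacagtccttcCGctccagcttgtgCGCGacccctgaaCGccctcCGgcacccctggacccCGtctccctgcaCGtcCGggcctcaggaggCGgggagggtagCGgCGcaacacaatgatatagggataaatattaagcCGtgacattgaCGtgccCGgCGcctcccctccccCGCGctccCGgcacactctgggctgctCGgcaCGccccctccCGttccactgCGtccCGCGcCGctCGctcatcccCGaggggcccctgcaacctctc
CCND3, window with 37 CG: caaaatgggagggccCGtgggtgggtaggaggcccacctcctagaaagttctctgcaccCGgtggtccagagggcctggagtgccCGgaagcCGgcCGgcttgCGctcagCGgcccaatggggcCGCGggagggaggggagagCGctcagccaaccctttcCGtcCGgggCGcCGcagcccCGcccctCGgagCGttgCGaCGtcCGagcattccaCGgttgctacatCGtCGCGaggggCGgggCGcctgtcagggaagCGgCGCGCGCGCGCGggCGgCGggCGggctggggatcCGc
The median of 35116 such windows is 14 CG, and 88.7% of them have fewer than 37. CDK6 and CCND3, picked for display by their differences, each have a window with this CG count. A link between CG count and the direction of a difference was not tested. CCNE1 has 47 CG, CDKN1B 29 and CDK4 23. The only RB1 window there, chr13:48476200-48476499, has 0. Other starts of RB1 were not examined, so this count does not describe the RB1 promoter as a whole. Methylation was not measured on these arrays, and which start is used in these cells is not known from them.

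An E2F motif, searched on both strands as TTTCCCGC, TTTCGCGC, TTTGCCGC or TTTGGCGC, was in 0 of the 9 windows and in 3.31% of all windows. The E-box CACGTG, which reads the same on both strands, was in 2 of the 9, the CDK4 window and the CDK6 window with 37 CG, and in 7.26% of all. These are matches of letters in short windows.

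CCND2, encoding cyclin D2, was the D cyclin with the lowest values relative to control. At its brightest probe set (200953_s_at) the knockdown signals were 9332, 10799 and 10757 in clones 1, 2 and 3, and the control signals 14987, 15899 and 15553. Every knockdown array lay below every control array. The mean was 10296 ± 835 against 15480 ± 460 (SD, n = 3 each), a log2 difference of -0.59 (SE 0.07), which left 66.4% of control (95% interval 59.9 to 73.6%). The clones were close to each other, with 62.3, 67.9 and 69.2% of control left.

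The other 3 CCND2 probe sets lay in the same direction. Probe set 200951_s_at had 812, 902 and 801 in the knockdown and 1309, 1024 and 1425 in the control (log2 -0.57, SE 0.13). Probe set 200952_s_at had 285, 262 and 266 against 496, 506 and 410 (log2 -0.79, SE 0.17). In both, the groups did not overlap, but clone 2 kept 88.1% of control at the first and 51.8% at the second, so the size for a given clone depended on the probe set. At 231259_s_at, with 313, 194 and 252 against 316, 383 and 268, the groups overlapped and clone 2 alone was far below its control (log2 -0.36, SE 0.22). All 4 probe sets are of a type that can cross-hybridise. Of the 21 tested probe sets 9 are of this type, these 4 and the single one of CDK4 among them.

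CCND1, encoding cyclin D1, went different ways in different clones. At 208712_at the signals were 2596, 2064 and 1683 in the knockdown and 2404, 2643 and 2613 in the control. Clone 1 had 108% of control, while clones 2 and 3 had 78.1 and 64.4%, and the groups overlapped (log2 -0.29, SE 0.13). At the dimmer 208711_s_at the signals were 937, 695 and 611 against 784, 743 and 720, with clone 1 at 120% and clones 2 and 3 at 93.5 and 84.9% (log2 -0.03, SE 0.13). The order of the clones was the same at both probe sets. At 208711_s_at the sign of the mean turned when clone 2 or clone 3 was left out (0.01 and 0.08).

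CCND3, encoding cyclin D3, lay higher in the knockdown. Its tested probe set (201700_at) had 2161, 2356 and 2144 in the knockdown and 1985, 1708 and 1469 in the control. Every knockdown array lay above every control array, with the smallest step in clone 1 (109% of control) and larger ones in clones 2 and 3 (138 and 146%). The mean was 2220 ± 117 against 1721 ± 258 (SD, n = 3 each), a log2 difference of 0.38 (SE 0.10), or 130% of control.

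**Figure D1:**
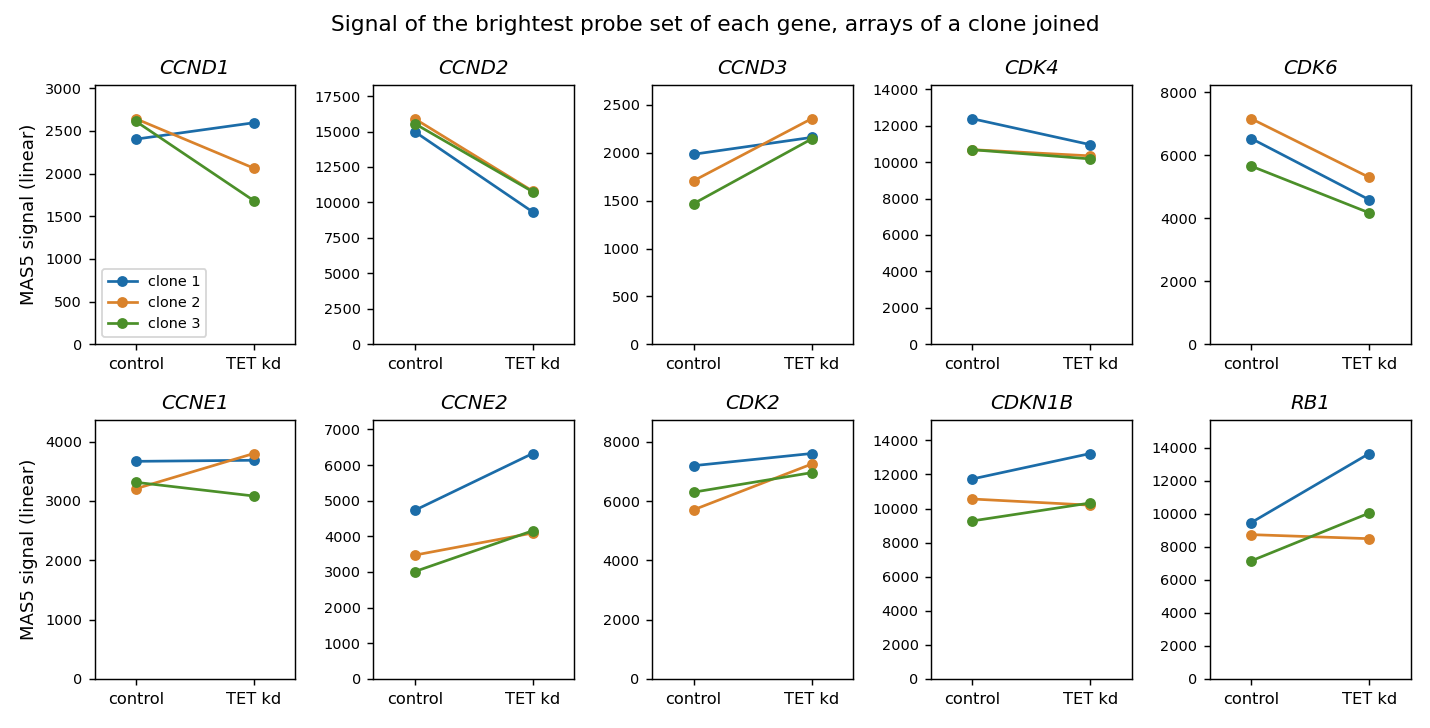
Signal on a linear axis at the brightest probe set of each of the 10 genes; points are single arrays, and a line joins the control and the knockdown array of a clone. CCND2 and CDK6 slope down in all 3 clones (66.4 and 72.7% of control left), while CCND1 slopes up in clone 1 and down in clones 2 and 3.

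CDK6, a kinase partner of the D cyclins, lay lower at all 5 tested probe sets and in all 3 clones at each of them. At 224851_at the signals were 3901, 3934 and 3219 in the knockdown and 5775, 6623 and 5264 in the control. The mean was 3684 ± 404 against 5888 ± 686 (SD, n = 3 each), a log2 difference of -0.68 (SE 0.07), which left 62.6% of control (95% interval 56.1 to 69.8%). At the brightest probe set, 224847_at, the signals were 4586, 5296 and 4170 against 6528, 7157 and 5652 (log2 -0.46, SE 0.07), or 72.7% of control. The clones kept their order in both groups, clone 2 being the highest and clone 3 the lowest, and the share left was 70.2, 74.0 and 73.8%.

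The third-brightest CDK6 probe set, 224848_at, had 2360, 2311 and 1971 in the knockdown and 2699, 3034 and 2382 in the control (log2 -0.29, SE 0.08). Its groups did not overlap, though knockdown clone 1 lay just below control clone 3. At 235287_at the signals were 219, 251 and 175 against 267, 525 and 308, where the control array of clone 2 was the highest (log2 -0.72, SE 0.21, and -0.55 without clone 2). At 243000_at, with 534, 941 and 639 against 703, 1081 and 851, the groups overlapped because clone 2 was high in both (log2 -0.34, SE 0.12). The share of control left thus ran from 60.7 to 82.0% over the 5 probe sets.

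CDK4, the other kinase of the D cyclins, differed little. Its single probe set (202246_s_at) had 10958, 10344 and 10176 in the knockdown and 12382, 10685 and 10680 in the control. All 3 clones were slightly lower, with 88.5, 96.8 and 95.3% of control, and the groups overlapped. The log2 difference was -0.10 (SE 0.07), with a 95% interval of -0.24 to 0.05.

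**Figure D2:**
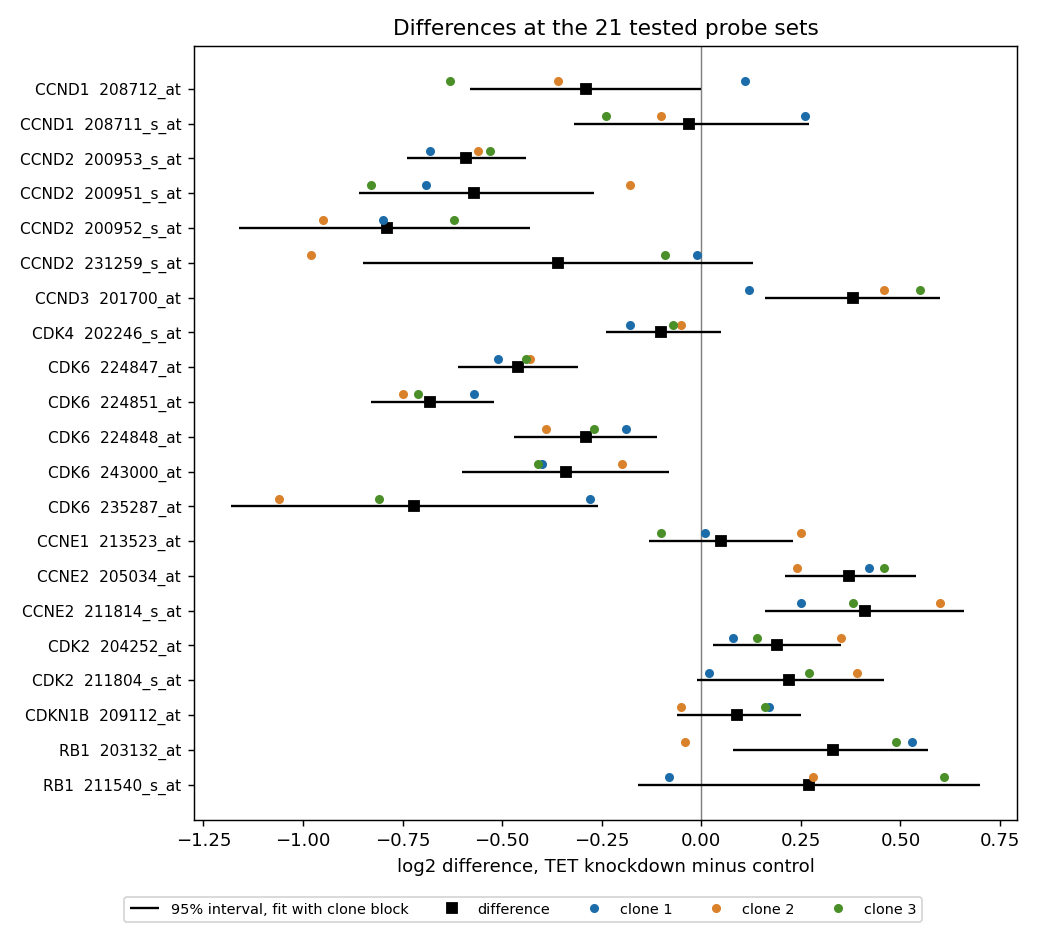
Log2 difference, knockdown minus control, at each of the 21 tested probe sets; squares with bars are the estimate and 95% interval of the fit with the clone as a block, and coloured points are the 3 clones. All CCND2 and CDK6 estimates lie left of 0 (-0.79 to -0.29) and those of CCND3, CCNE2, CDK2 and RB1 right of it (0.19 to 0.41).

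CCNE2, encoding cyclin E2, lay higher in every clone at both probe sets. At 205034_at the signals were 6323, 4092 and 4156 in the knockdown and 4729, 3473 and 3012 in the control. The groups overlapped because clone 1 was high under both treatments, but within each clone the knockdown array was the higher, at 134, 118 and 138% of control. The log2 difference was 0.37 (SE 0.08), or 130% of control. At 211814_s_at the signals were 1231, 1034 and 1000 against 1035, 681 and 768 (log2 0.41, SE 0.12), with control clone 1 again inside the knockdown range.

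CCNE1, encoding cyclin E1, had no common direction in the clones. At 213523_at the signals were 3684, 3798 and 3082 in the knockdown and 3666, 3205 and 3313 in the control. Clone 1 was level, clone 2 at 119% and clone 3 at 93.0% of control. The log2 difference was 0.05 (SE 0.08, 95% interval -0.13 to 0.23) and turned to -0.05 without clone 2.

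CDK2, the kinase of the E cyclins, was slightly higher in all 3 clones at both tested probe sets. At 204252_at the signals were 7607, 7249 and 6960 in the knockdown and 7196, 5707 and 6302 in the control, and at 211804_s_at 1438, 1296 and 1446 against 1419, 991 and 1203. Control clone 1 was the array that made the groups overlap in each case. The log2 differences were 0.19 (SE 0.07) and 0.22 (SE 0.11).

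CDKN1B, encoding the inhibitor p27, had 13230, 10199 and 10328 in the knockdown and 11738, 10559 and 9275 in the control at its single probe set (209112_at). The groups overlapped and clone 2 was at 96.6% of control, against 113 and 111% in clones 1 and 3 (log2 0.09, SE 0.07, 95% interval -0.06 to 0.25).

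RB1, encoding the retinoblastoma protein, had 13648, 8492 and 10044 in the knockdown and 9469, 8737 and 7151 in the control at 203132_at. Clones 1 and 3 stood at 144 and 140% of control and clone 2 at 97.2% (log2 0.33, SE 0.11). At the much dimmer 211540_s_at, with 280, 360 and 353 against 295, 297 and 231, clone 1 was at 94.7%, clone 2 at 121% and clone 3 at 153% of control (log2 0.27, SE 0.20). Clone 3 alone was above its control at both probe sets.

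Read side by side, 10 of the 21 probe sets were lower in all 3 clones, 5 were higher in all 3 and the remaining 6 were mixed. The 10 were all tested probe sets of CCND2 and CDK6 and the one of CDK4. The 5 were those of CCND3, CCNE2 and CDK2. Probe sets of a gene are not independent, and the share of all tested probe sets with the same sign was not counted. Nothing is therefore read from these counts. The knockdown and control arrays did not overlap, with the knockdown lower, at 7 of the 21, 3 of CCND2 and 4 of CDK6, where 5.5% of all tested probe sets were so. They did not overlap with the knockdown higher at 1, that of CCND3, where 7.21% of all were so. Since this contrast was in view when the genes were listed, these shares are given for reference. The median difference of all tested probe sets was 0.02 on the log2 scale.

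**Figure D3:**
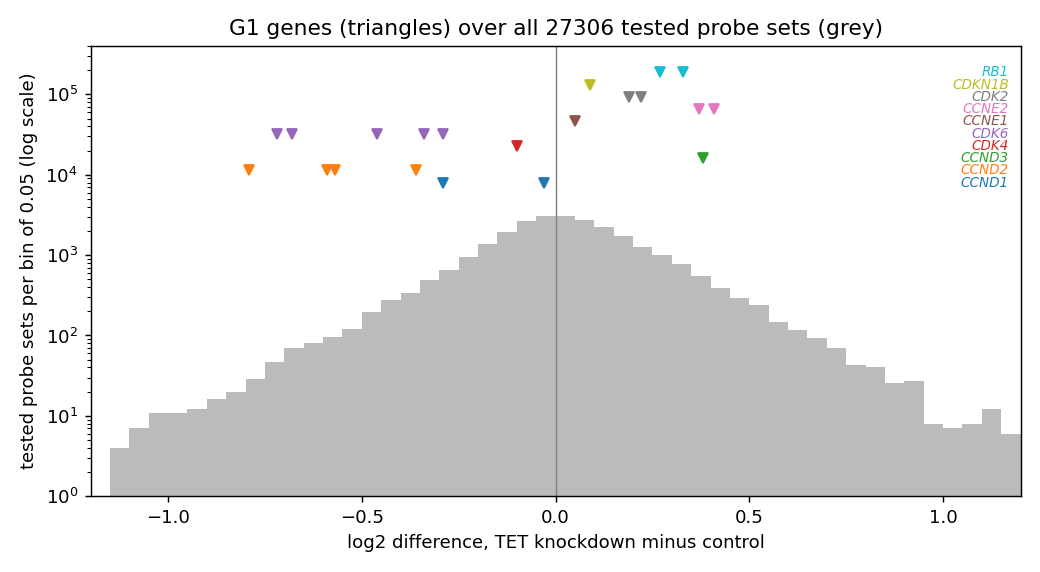
Histogram of log2 differences, knockdown minus control, of all 27306 tested probe sets on a log count axis, shown between -1.2 and 1.2, with triangles at the 21 probe sets of the G1 genes, 1 row per gene at a height with no meaning. The triangles of CCND2 and CDK6 lie in the left flank and those of CCNE2, RB1 and CCND3 right of the centre at 0.02.

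The difference between clones was tested in the same limma fit as clone 1 against the mean of clones 2 and 3. This contrast did not enter the choice of genes, but clone 1 was set apart with earlier results of these data known. The p-values rest on 1 knockdown and 1 control array of clone 1 and measure only the spread between these arrays. Over all tested probe sets 3849 (14.1%) had an adjusted p under 0.05, and among the 21 of the G1 genes 4 did, 3 higher and 1 lower in clone 1. For so few probe sets this count is close to the share of all, and nothing about the G1 genes is read from it. CCNE2 at 205034_at was 1.5-fold higher in clone 1 (log2 0.58, SE 0.08, limma adjusted p = 0.0012), where 6323 and 4729 lay above all 4 arrays of the other clones (3012 to 4156). At 211814_s_at the difference was 0.40 (SE 0.12) and missed the threshold (limma adjusted p = 0.0530). CDKN1B was 1.24-fold higher (log2 0.31, SE 0.08, limma adjusted p = 0.0209), with 13230 and 11738 above the 9275 to 10559 of the others.

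RB1 at 203132_at was higher in clone 1 as well (log2 0.41, SE 0.11, limma adjusted p = 0.0436), but control clone 1 lay within the range of the other clones, and 211540_s_at gave -0.09 (SE 0.21). CDK6 was lower in clone 1 at 243000_at (log2 -0.49, SE 0.13, limma adjusted p = 0.0249) and at no other of its probe sets, whose differences were -0.26 to 0.08 with limma adjusted p-values of 0.474 to 0.994. The CCNE2 call at 205034_at held in 11 of 12 alternatives (adjusted p 1.58e-05 to 0.0900), that of CDKN1B in 6 of 12 (0.0016 to 0.234), that of RB1 in 5 of 12 (3.64e-05 to 0.387) and that of CDK6 in 5 of 11 (0.0118 to 0.205). The call of CDKN1B was lost without any single array of clone 1 or clone 3, as was that of CDK6, and that of RB1 without control replicate 3 or either array of clone 1. The count of 4 was 1 without knockdown replicate 1, control replicate 1 or control replicate 3, and 2 without knockdown replicate 3. All 3849 calls became 1005 and 1103 without knockdown and control replicate 1, 2493 and 1633 without those of clone 3, and 5934 without control replicate 2.

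**Figure D4:**
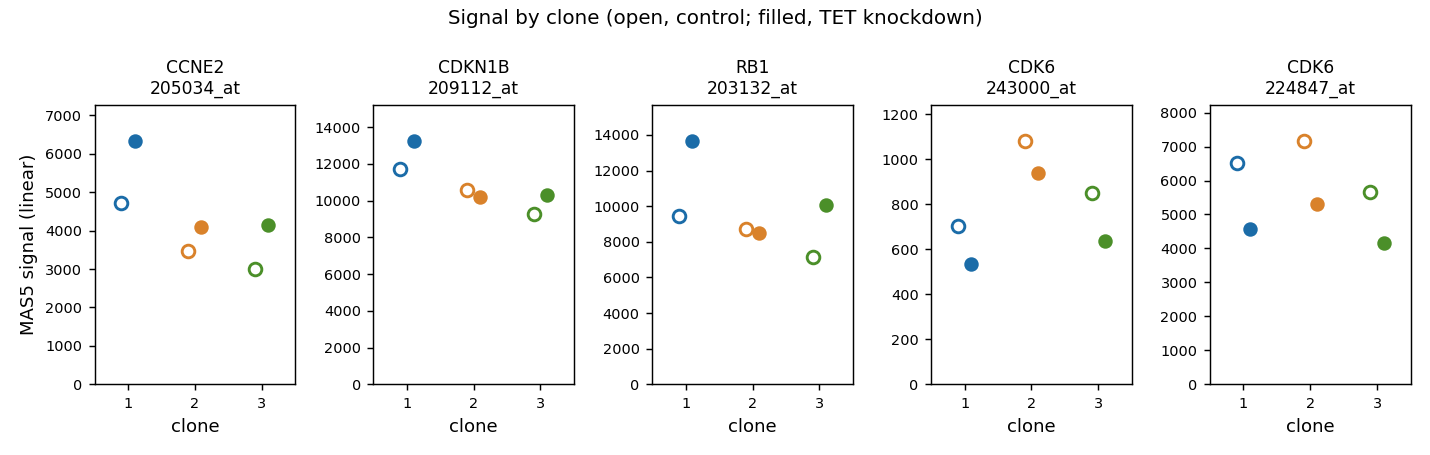
Signal on a linear axis by clone for the 4 probe sets called between clone 1 and the others and, at the right, the brightest CDK6 probe set; open points are control arrays and filled points knockdown arrays. Both arrays of clone 1 stand above the other 4 for CCNE2 (4729 and 6323) and CDKN1B (11738 and 13230).

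The rest of the pathway was read from 8 lists of 87 tested genes, each gene at its brightest probe set, in the fit with the clone as a block. Of 12318 genes so measured 162 (1.32%) were called, 103 lower and 59 higher, and of the 87 none was called with an adjusted p under 0.05, with or without the clone in limma. At an unadjusted p under 0.05 there were 14 of the 87 (16.1%), 5 with positive and 9 with negative differences, beside 1988 (16.1%) of all genes. The median difference of the 87 was 0.02, and of all genes 0.01. Of all 12318 genes 6397 had positive differences. The counts of signs per list below are given for description, and nothing is read from them.

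Among the inhibitors of CDKs other than p27, 5 of 6 genes were measured, 4 with negative differences and a median of -0.20. CDKN2D, an inhibitor of CDK4 and CDK6, was dim, with 76.4, 208 and 149 in the knockdown and 193, 268 and 276 in the control (log2 -0.86, SE 0.26, limma adjusted p = 0.160). CDKN2A, whose locus encodes another such inhibitor, p16, differed by -0.20 (SE 0.08). CDKN1A, encoding p21, was at 0.02 (SE 0.10).

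The retinoblastoma relatives, E2F and DP factors gave 12 tested genes, 8 with positive and 4 with negative differences and a median of 0.05. E2F4, a mostly repressive E2F, had 761, 967 and 888 in the knockdown against 977, 1130 and 1090 (log2 -0.29, SE 0.11, limma adjusted p = 0.238), and E2F7, an atypical repressor, 7382, 8199 and 7057 against 6394, 7226 and 6083 (log2 0.20, SE 0.07, limma adjusted p = 0.181). The DREAM complex represses cell cycle genes in resting cells. Genes of DREAM and MuvB, listed with MYBL2 and the kinase DYRK1A, had a median of 0.08 over 7 genes. In this list LIN9 was at 0.19 and DYRK1A at 0.08.

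Of the factors that activate or assemble CDKs, 6 of 7 had negative differences, with a median of -0.06. Several of these lay close to 0, with CCNH at -0.06, CDC25A at -0.05 and MNAT1 at -0.02. CDK7, the CDK-activating kinase, was at -0.21 (SE 0.07, limma adjusted p = 0.198) and CKS1B, a CDK-binding subunit also needed for the breakdown of p27, at -0.24 (SE 0.07, limma adjusted p = 0.143). Genes for the turnover of G1 cyclins and p27 had a median of 0.02 over 14. UBAC1, a subunit of a ligase that acts on p27, was at -0.26 and CUL4B, a ligase scaffold, at -0.18. The other 3 CUL4B probe sets lay at -0.34, -0.28 and -0.41, of which the first was called (limma adjusted p = 0.0459).

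Transcription factors that act on the genes of D cyclins and p27 had a median of 0.09 over 11 genes. EGR1, an immediate early factor, had 4906, 4278 and 4669 in the knockdown and 3744, 3723 and 3458 in the control, with no overlap (log2 0.34, SE 0.08, limma adjusted p = 0.0611). Its dimmer probe sets gave 0.45 and 0.28. ETS2 was at -0.35 (SE 0.10, limma adjusted p = 0.132) at the brighter and at -0.08 at the dimmer of its probe sets. MYC was at -0.13 (SE 0.08) and the forkhead factors FOXO1, FOXO3 and FOXO4 at -0.02, 0.09 and 0.20.

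The 19 measured E2F targets of S phase entry had a median of -0.01 and a range of -0.23 to 0.20. UHRF1, a partner of maintenance methylation, was at -0.23 (SE 0.08, limma adjusted p = 0.193) and POLA1, a catalytic subunit of DNA polymerase alpha, at 0.17 (SE 0.07, limma adjusted p = 0.300). CCNA2, the cyclin that follows the E cyclins on CDK2, was at -0.13 (SE 0.07). Other cyclins and CDKs outside mitosis had a median of 0.03 over 12 genes, with CDK16 at 0.24 and CCNG2, a cyclin linked to cell cycle arrest, at 0.18.

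**Figure D5:**
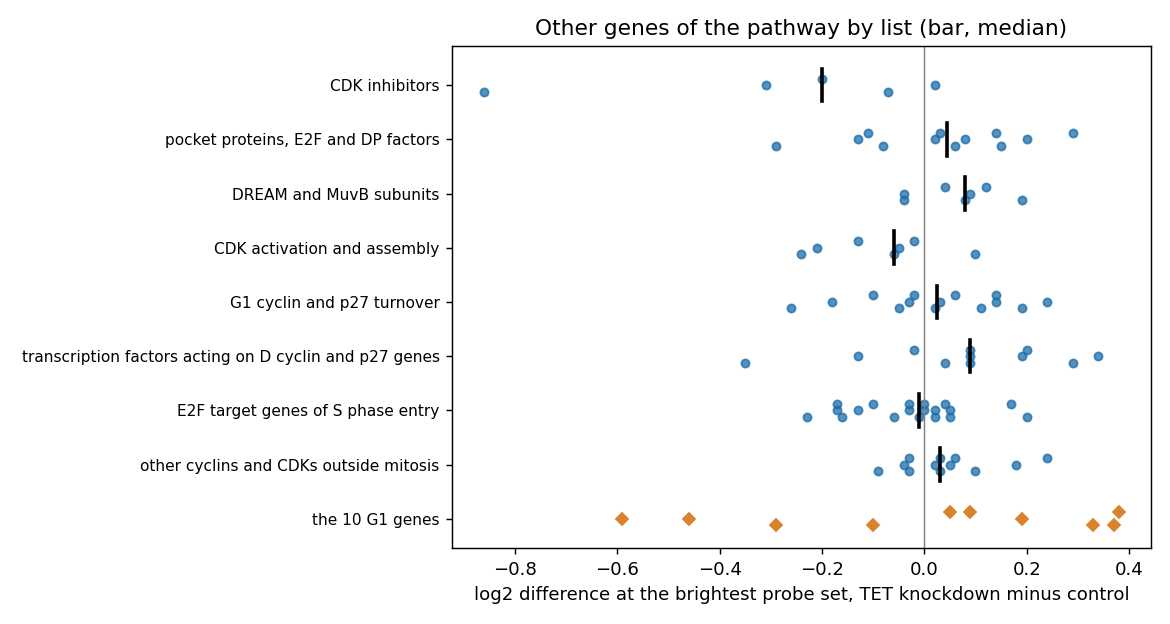
Log2 difference, knockdown minus control, at the brightest probe set of each gene in 8 lists (points, with the list median as a bar) and of the 10 G1 genes (diamonds). List medians lie between -0.20 and 0.09. Single genes of the lists spread from -0.86 (CDKN2D) to 0.34 (EGR1), and the G1 genes from -0.59 (CCND2) to 0.38 (CCND3).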

How the data were processed

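The authors deposited 1 column of intensity per array, MAS5 signals per probe set on a linear scale. The name MAS5 comes from the submitters' processing notes, which state no version. The trimmed mean was 1000 on every array, so no further scaling was applied. Of 54675 probe sets 62 controls were set aside, and 41091 of the other 54613 carried 1 gene, 41037 of them found in RefSeq (GRCh38.p14, used for names). Signals were taken to log2. Knockdown was compared with control in limma 3.58.1 (R 4.3.3), with trend and robust moderation and the clone as a block, two-sided, with Benjamini-Hochberg adjustment over 27306 probe sets and a threshold of 0.05. SDs are over 3 arrays, SEs and 95% intervals from the fit.

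The labels give the clone number in both groups. After subtraction of group means, the knockdown and control arrays of a clone correlated at 0.493, 0.234 and 0.236, against at most 0.219 between different clones. Only clone 1 thus stood clearly apart, and the values of clones 2 and 3 lay barely above the highest one between different clones. The G1 genes, the lists and the rule for named genes (every G1 gene, then up to 4 called genes per list or else the 2 of smallest p; others were named after their values were seen) were chosen with earlier results of these data known. The steps were tested on simulated data, in a simulation that was revised more than once; the share of false calls depended on how its noise was drawn and in one version was far above the nominal 5%, so the counts of calls are open to excess false calls. Alternatives were a fit without the block, other filters, a pseudocount of 36.1, quantile normalization, plain empirical Bayes, gene means and arrays or clones left out. Plots were drawn with matplotlib 3.10.9.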

Additional observations from a re-analysis of the deposited data

How the results depend on the processing

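At the 21 probe sets the sign of the knockdown difference turned only where the report says: at CCND1 208711_s_at without replicate 2 (0.01) or 3 (0.08; lowest -0.17) and at CCNE1 without replicate 2 (-0.05; highest 0.13 without replicate 3). The 282 calls over all probe sets became 4 in the fit with no replicate block, 70 with no filter on dim probe sets, 0 with plain empirical Bayes, and 63 to 684 without replicate 1, 2 or 3. The 3 lower calls of CCND2 and CDK6 became 0 with no replicate block and with plain empirical Bayes, and 2 to 4 without a replicate. The higher call of CCNE2 was lost with no replicate block, with no filter, with quantile normalization and with plain empirical Bayes. It was also lost without replicate 1 or 3. Without replicate 2 it was kept, and RB1 at 203132_at was called higher as well (log2 0.51, limma adjusted p = 8.13e-04). In the clone contrast the 3849 calls became 1926 with no filter, 13 with plain empirical Bayes and 1005 to 5934 without 1 array, and the 4 calls of G1 genes 1, 0 and 1 to 6 in that order. Its sign turned without knockdown replicate 1 at CCND1 208712_at (-0.13, up to 0.48 without other arrays), CCND2 231259_s_at (-0.02, up to 0.50), CDK6 224851_at (-0.03, up to 0.13) and RB1 211540_s_at (0.17, down to -0.35), without knockdown replicate 3 at CCND2 200951_s_at (-0.07) and RB1 211540_s_at (0.04), without control replicate 1 at CCND2 200951_s_at (-0.07), CCND3 (-0.06, up to 0.33) and CDK6 235287_at (0.06, down to -0.59), without control replicate 2 at CCND2 200951_s_at (-0.12), and for the CCND2 mean over probe sets (0.06), none of them called. The cause was not tested. MAS5 signals near background are noisy, and detection calls were not used here.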

Other observations

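The 5 probe sets of G1 genes below the brightness limit gave levels near background. The third CDK2 probe set (211803_at) had 12.5, 12.9 and 37.4 in the knockdown and 80.6, 62.8 and 68.1 in the control, so that the groups did not overlap, while the brighter CDK2 probe sets lay slightly higher in the knockdown. The dim CCND3 probe set (1562028_at) had 15.3, 32.6 and 49.4 against 9.2, 13.7 and 11.2, the same direction as the brighter one. For CDK6, 207143_at had 129, 112 and 93.1 against 161, 18.5 and 115, and 231198_at had 81.9, 45.8 and 107 against 84.9, 91.5 and 8.57, each with a single very low control array. The second CCNE1 probe set (242105_at) stayed at 6.24 to 15.8 in all 6 arrays.

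Among 12308 other genes, the 3 whose log2 signals followed CCND2 most closely over the 6 arrays were ANO6, encoding a phospholipid scramblase (Pearson r = 0.997), HOOK1, encoding an adaptor of the dynein motor (r = 0.995), and ORC4, encoding a subunit of the origin recognition complex (r = 0.995). The arrays share their clones and treatments, and the genes were picked as the closest of many. ORC4 had 4971, 5540 and 5311 in the knockdown and 7598, 7959 and 7693 in the control (log2 -0.56), ANO6 a difference of -0.62 and HOOK1 of -0.33.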
